A study of Rattus norvegicus with 40 samples.

Results

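The genes described are 7 feedback inhibitors, Nfkbia, Tnfaip3, Socs1, Socs3, Cish, Dusp1 and Dusp2, taken by their symbols from tables of 31677 rat gene models. Each symbol stood on a single gene model. RNA had been sequenced from T cells of kidney and of circulating blood in 40 libraries, each made from a pool of 3 Dahl salt-sensitive (SS) rats, with 4 pools in each of 10 groups. Kidney and circulating cells were taken from the same 5 groups of rats. These were SS/CRL rats aged 10 weeks on high-salt chow (HS) for 3 weeks, SS/CRL rats aged 10 weeks on low-salt chow (LS), SS/MCW rats aged 10 weeks on HS for 3 weeks, SS/MCW rats aged 10 weeks on LS, and SS/MCW rats aged 7 weeks on LS. All rats were of the SS strain, in which blood pressure depends on dietary salt, and SS/CRL and SS/MCW are its 2 types per the labels.

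Inflammatory and cytokine signals switch on the genes for their own inhibitors, so that the signal ends soon after it starts. NF-kB, a transcription factor released when its inhibitor is degraded, induces Nfkbia and Tnfaip3. STAT factors, activated by the JAK kinases at cytokine receptors, induce Socs1, Socs3 and Cish, and MAP kinases induce the dual-specificity phosphatases that switch them off. In T cells these loops limit the response to antigen and to interleukins. Several of the same genes also respond to stress and inflammation in epithelium and in macrophages.

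The values are FPKM, fragment counts scaled to transcript length and library size, given by the authors' Cuffdiff tables as 1 value per group. There were 15 such tables, 5 setting kidney against circulating cells of the same rats, 5 within kidney cells and 5 within circulating cells. A fold change is the log2 ratio of the FPKM of a table. A difference is called, and a verb such as rose or fell is used, only where the Cuffdiff q-value in the authors' deposited table was under 0.05. All 7 genes were tested in all 15 tables, and 38 of these 105 tests were called. Most of the calls lay between the tissues, where 43.6% to 56.7% of all gene models tested were called in each table. Within a tissue the called share of all gene models was 0.107% to 5.72%. Without a value per library no SD can be given, the depth is unknown, and the q-values measure the spread between pools only. The tables share groups with each other and are not independent of each other.

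On build rn5 the gene model of Nfkbia, which encodes the NF-kB inhibitor IkBα, lay on chromosome 6 from 85803990 to 85807223. Tnfaip3, which encodes the ubiquitin-editing enzyme A20, lay on chromosome 1 from 15952174 to 15969217. Dusp1 lay on chromosome 10 from 16867369 to 16870166, Dusp2 on chromosome 3 from 126303198 to 126305373 and Socs3 on chromosome 10 from 106611335 to 106614514. The Socs1 model, on chromosome 10 from 3782935 to 3783574, spanned 640 bases, against 1692 bases of the RefSeq gene on another assembly. The Cish model, on chromosome 8 from 115368424 to 115416049, spanned 47626 bases, against 4949 bases of the RefSeq gene, and overlapped the model of Mapkapk3. Reads of the neighbour may therefore be counted in the Cish value, and its levels are uncertain.

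The promoters of 4 of the genes are shown because Nfkbia, Tnfaip3 and Dusp2 differed together between the rat types in kidney cells, and because Dusp1 had the largest excess in kidney cells. The sequences are those of RefSeq on assembly GRCr8, 250 bases before to 50 bases after the gene's start, read 5′ to 3′ on the gene's strand, at chr6:78597023-78597322 (minus) for Nfkbia, chr1:15543930-15544229 (minus) for Tnfaip3, chr3:135009386-135009685 (plus) for Dusp2 and chr10:17184603-17184902 (plus) for Dusp1. Capitals mark matches to NF-kB letters, GGG and CC with any 5 bases between them, on either strand in the first 3 sequences. In that of Dusp1 they mark the cyclic AMP response element TGACGTCA or its shorter form TGACG.
Nfkbia: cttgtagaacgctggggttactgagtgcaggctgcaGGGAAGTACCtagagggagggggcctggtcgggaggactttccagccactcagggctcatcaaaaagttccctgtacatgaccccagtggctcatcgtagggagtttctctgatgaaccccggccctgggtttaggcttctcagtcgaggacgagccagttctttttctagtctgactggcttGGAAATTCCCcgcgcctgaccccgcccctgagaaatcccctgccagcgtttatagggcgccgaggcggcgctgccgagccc
Tnfaip3: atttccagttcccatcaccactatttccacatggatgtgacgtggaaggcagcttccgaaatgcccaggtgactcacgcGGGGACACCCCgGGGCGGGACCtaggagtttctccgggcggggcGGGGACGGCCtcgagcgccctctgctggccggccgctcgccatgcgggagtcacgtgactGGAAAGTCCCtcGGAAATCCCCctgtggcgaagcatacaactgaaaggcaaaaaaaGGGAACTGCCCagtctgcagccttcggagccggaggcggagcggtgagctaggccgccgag
Dusp2: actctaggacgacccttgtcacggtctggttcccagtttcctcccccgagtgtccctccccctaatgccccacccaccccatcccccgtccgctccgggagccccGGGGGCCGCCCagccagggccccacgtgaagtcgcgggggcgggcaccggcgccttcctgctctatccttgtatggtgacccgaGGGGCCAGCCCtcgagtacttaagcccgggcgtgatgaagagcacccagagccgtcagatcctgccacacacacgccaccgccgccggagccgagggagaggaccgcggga
Dusp1: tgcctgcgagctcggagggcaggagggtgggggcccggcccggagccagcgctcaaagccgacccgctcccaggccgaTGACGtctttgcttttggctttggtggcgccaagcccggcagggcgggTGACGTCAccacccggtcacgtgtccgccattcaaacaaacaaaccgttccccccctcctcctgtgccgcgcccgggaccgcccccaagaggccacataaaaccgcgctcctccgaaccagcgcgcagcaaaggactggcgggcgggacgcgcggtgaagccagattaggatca

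All 7 promoters held matches to the NF-kB letters, 8 in Tnfaip3, 4 in Dusp2, 4 in Dusp1, 3 in Socs1, 2 in Nfkbia, 2 in Cish and 1 in Socs3, and several of them overlap each other. The letters are loose, since 47.3% of 33469 promoters of the same length held at least 1 match. The full cyclic AMP response element, a site of CREB-family factors, was present in 1.83% of the promoters and, among the 7 genes, in Dusp1. The shorter form was present in 21.2% of promoters, with 3 matches in Dusp1, 1 in Tnfaip3 and 1 in Dusp2. Apart from the match at -172 to -168 from the start, those in Dusp1 lie within its full element. The AP-1 letters TGANTCA were present in 7.33% of promoters, with 1 match in Tnfaip3. The STAT letters TTCNNNGAA were present in 8.87% of promoters, with 4 matches in Cish and 1 in Socs1. The start used for Nfkbia lies 235 bases inside the RefSeq gene's outer edge, and that of Socs3 1207 bases inside. A match describes the letters of the window and shows neither binding nor use.

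The label of the kidney libraries was checked against marker genes. The summed level of 17 T cell markers, Cd3e, Cd4, Cd8a and Lck among them, was 284 to 1060 FPKM in the kidney groups and 5062 to 6447 FPKM in the circulating groups. Each of the 17 was called lower in kidney cells of every group of rats, and their median level was 2.91% to 14.4% of that in circulating cells. Kidney groups held 3047 to 12493 summed FPKM of 15 proximal tubule markers and 327 to 1520 summed FPKM of 11 macrophage markers, against at most 0.985 FPKM and at most 69.0 FPKM in circulating groups, where C1qa and C1qc were listed at 0. The kidney libraries thus held abundant RNA of other cells beside that of T cells, and the cell that expressed a gene cannot be told from these values. Nor can fewer cells of a type be told apart from less RNA per cell.

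Kidney cells were compared with circulating cells of the same rats to find how the feedback genes differed between organ and blood. The 7 genes did not move as a group. Dusp1 and Socs3 were higher in kidney in all 5 groups of rats, Tnfaip3 and Socs1 were lower in all 5, and Nfkbia and Dusp2 were lower in all but SS/MCW rats on HS. Cish was higher in 1. With a normal p of the Cuffdiff test statistic in place of the deposited p, adjusted over all gene models, the calls that passed were 5 of 5 for Dusp1, 4 of 5 for Socs3, 4 of 5 for Tnfaip3, 1 of 5 for Socs1, 2 of 4 for Nfkbia, 2 of 4 for Dusp2 and 1 of 1 for Cish. In order of SS/CRL HS, SS/CRL LS, SS/MCW HS, SS/MCW LS at 10 weeks and SS/MCW LS at 7 weeks, 6, 7, 4, 6 and 6 of the 7 genes were called. Over all gene models tested the called shares were 50.9%, 53.5%, 49%, 43.6% and 56.7%, so a call was common. These shares use the deposited q, and those by the normal p are not given here. In the same order 30.6%, 31.5%, 30.6%, 26.6% and 32.9% were higher in kidney and 20.3%, 22%, 18.4%, 17% and 23.9% lower. Of 18271 gene models tested in all 5 tables, 18.4% were called higher in all of them and 13.6% lower.

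**Figure D1:**
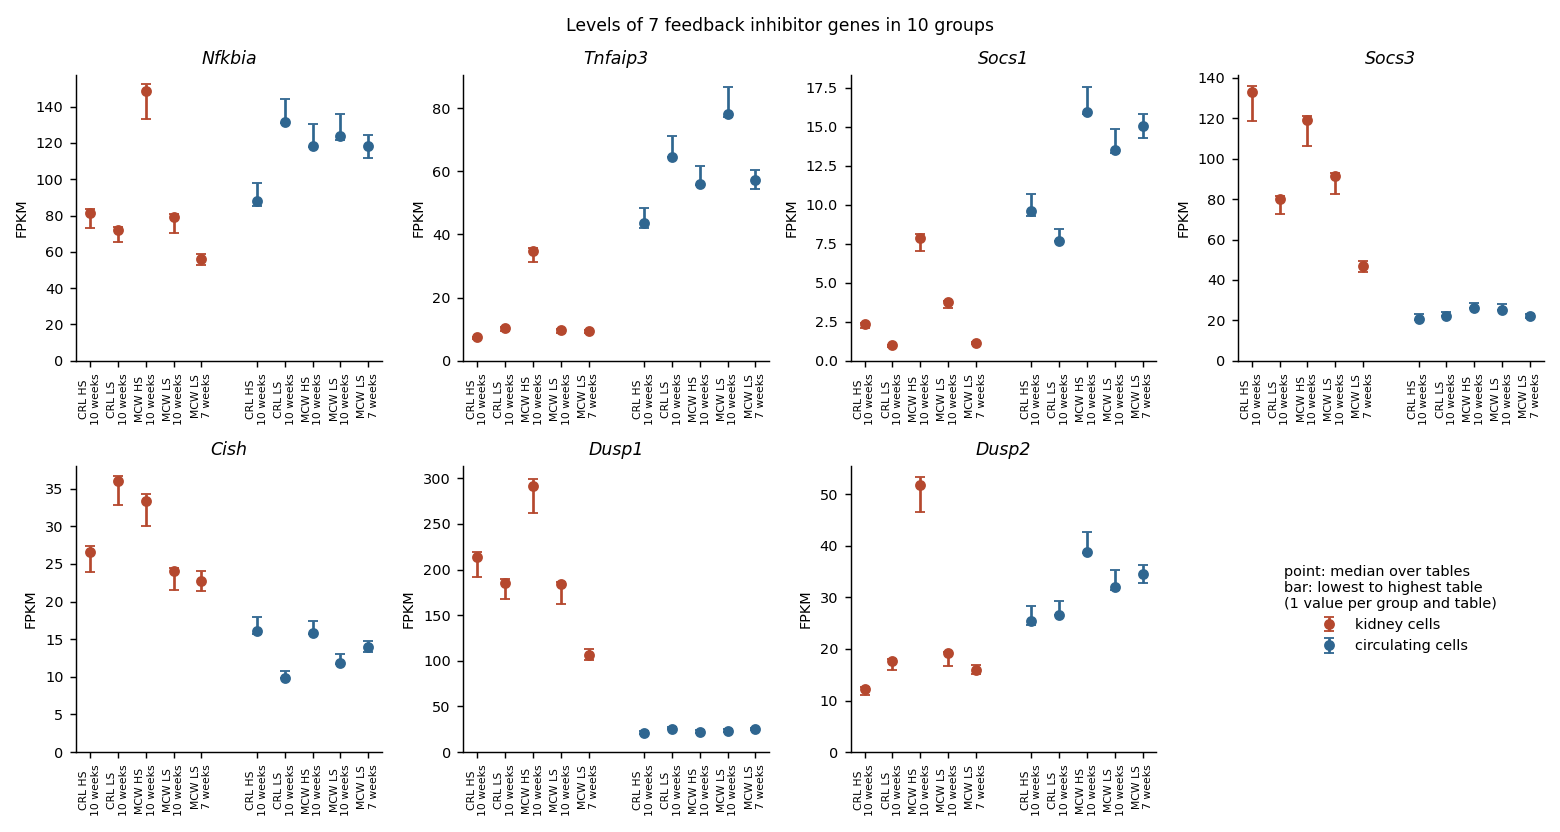
Level of each gene in FPKM (vertical axis, from 0) in the 5 kidney groups on the left and the 5 circulating groups on the right of each panel. Points are medians over the 2 to 4 tables that hold a group and bars run from the lowest to the highest table, so they show scaling between tables and not replicate error. Dusp1 and Socs3 stood higher in every kidney group than in any circulating group, and Tnfaip3 stood lower.

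Tnfaip3, the A20 enzyme that takes apart the ubiquitin chains of activated NF-kB signalling complexes, had 6.74 FPKM in kidney cells of SS/CRL HS rats, against 48.5 FPKM in their circulating cells. In SS/CRL LS rats it had 9.35 FPKM in kidney cells, against 71.0 FPKM in circulating cells, and in SS/MCW HS rats 31.1 FPKM, against 61.6 FPKM. In SS/MCW LS rats it had 8.70 FPKM in kidney cells at 10 weeks, against 86.6 FPKM in circulating cells, and at 7 weeks 8.80 FPKM, against 60.5 FPKM. No kidney value reached a circulating one. The kidney level was 10.0% to 14.5% of the circulating level in 4 groups of rats and 50.5% in SS/MCW HS rats, with q-values in the authors' deposited tables from 0.000141 to 0.00277.

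Nfkbia, whose protein IkBα holds NF-kB in the cytoplasm, was the most abundant of the 7 genes in circulating cells. It had 73.2 FPKM in kidney cells of SS/CRL HS rats, against 97.7 FPKM in circulating cells, and 65.5 FPKM in kidney cells of SS/CRL LS rats, against 144 FPKM. It had 70.6 FPKM in kidney cells of SS/MCW LS rats at 10 weeks, against 136 FPKM in circulating cells, and 52.7 FPKM at 7 weeks, against 124 FPKM. These 4 differences were called lower, with log2 fold changes of -0.42, -1.14, -0.95 and -1.24. In SS/MCW HS rats kidney cells had 133 FPKM and circulating cells 130.3 FPKM, a log2 fold change of 0.03 with a 95% interval from -0.44 to 0.51 and a Cuffdiff q of 0.913 in the authors' deposited table. This interval, like those below, comes from the deposited p-value.

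Of the cytokine inhibitors, Socs1 and Socs3 differed in opposite directions. Socs1, which blocks the JAK kinases of interferon and interleukin receptors, had 2.12, 0.900, 7.02, 3.36 and 1.08 FPKM in kidney cells of SS/CRL HS, SS/CRL LS, SS/MCW HS, SS/MCW LS 10-week and SS/MCW LS 7-week rats. In circulating cells of the same groups it had 10.7, 8.42, 17.5, 14.9 and 15.8 FPKM. Of these values every kidney one lay below every circulating one, at 6.86% to 40.1% of the circulating level of the same rats. Only the comparison within the same rats was tested. As medians over all tables that hold a group, kidney cells of SS/MCW HS rats had 7.86 FPKM. Circulating cells of SS/CRL LS rats had 7.66 FPKM by the same measure. The q in the authors' deposited table lay between 0.000141 and 0.0412, and the weakest was that of SS/CRL HS rats.

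Socs3, which blocks receptors of the interleukin-6 family through their gp130 chain, had 119, 72.9, 106, 82.3 and 44.1 FPKM in kidney cells of the same 5 groups in the same order. In circulating cells it had 23.0, 24.3, 28.7, 27.9 and 23.4 FPKM. All kidney values lay above all circulating ones, with log2 fold changes from 0.91 in SS/MCW LS rats at 7 weeks to 2.37 in SS/CRL HS rats. Circulating values of Socs3 spanned 23.0 to 28.7 FPKM, and the kidney values spanned 44.1 to 119 FPKM.

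Cish, an inhibitor induced by STAT5 downstream of interleukin-2, had 24.0, 32.9, 30.0, 21.5 and 21.4 FPKM in kidney cells and 17.9, 10.8, 17.4, 13.1 and 14.8 FPKM in circulating cells, in the same order of groups. All 5 log2 fold changes were above 0, from 0.42 to 1.61. The rise in SS/CRL LS rats was called, with a Cuffdiff q of 0.000146, and in SS/MCW HS rats the q of 0.0501 in the authors' deposited table just missed the threshold.

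The phosphatases Dusp1 and Dusp2 differed in opposite directions as well. Dusp1, which removes phosphate from p38, JNK and ERK kinases in the nucleus and is an immediate early gene in many cell types, had 192 FPKM in kidney cells of SS/CRL HS rats, against 23.3 FPKM in circulating cells. The levels were 168 against 27.3 FPKM in SS/CRL LS rats, 262 against 23.7 FPKM in SS/MCW HS rats, 163 against 25.2 FPKM in SS/MCW LS rats at 10 weeks, and 101 against 26.7 FPKM at 7 weeks. The log2 fold changes were 3.04, 2.62, 3.47, 2.69 and 1.91, the largest excess of the 7 genes in every group of rats. In circulating cells Dusp1 kept between 23.3 and 27.3 FPKM in these 5 tables.

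Dusp2, a phosphatase of ERK that is found mainly in leukocytes, had 11.1, 16.0, 46.5, 16.8 and 15.1 FPKM in kidney cells of the 5 groups in the order above. In circulating cells it had 28.3, 29.3, 42.7, 35.2 and 36.4 FPKM. The kidney level was 39.3% to 54.5% of the circulating level in 4 groups of rats and 109% in SS/MCW HS rats, where the Cuffdiff q was 0.691. The value in kidney cells of SS/MCW HS rats lay above all 5 circulating values, and those of the other 4 kidney groups lay below them.

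**Figure D2:**
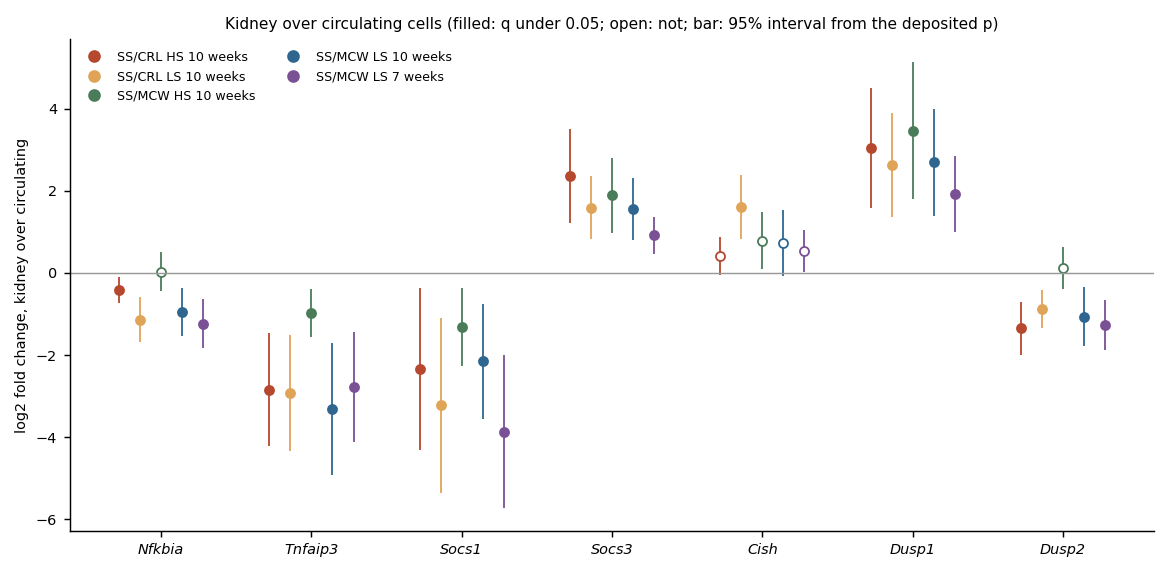
Log2 fold change of kidney over circulating cells (vertical axis) for each gene in the 5 groups of rats. Filled points passed a Cuffdiff q of 0.05, open points did not, and bars are 95% intervals derived from the deposited p-value. Dusp1 and Socs3 lay above 0 in all 5 groups, Tnfaip3 and Socs1 below 0, and the points of SS/MCW HS rats stood highest for Nfkbia, Tnfaip3, Socs1, Dusp1 and Dusp2.

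Beside these genes, the rest of their pathways was counted from lists fixed by name. Over all gene models tested in all 5 tables, 18.4% were called higher in every group of rats and 13.6% lower. Of 11 JAK and STAT genes, 8 were called lower in kidney cells of every group of rats and none was called higher in every group. Of 18 cytokine receptor chains, 10 were lower in all 5 and 2 were higher. In SS/MCW HS rats Stat4, a mediator of interleukin-12 signals, had 8.98 FPKM in kidney cells, against 62.2 FPKM in circulating cells, and Il2rg, the chain shared by receptors for interleukin-2 and its relatives, had 74.9 FPKM, against 518 FPKM. Of 5 other SOCS genes, Socs2 and Socs4 were lower in all 5, and Socs2 had 4.20 FPKM in kidney cells of SS/MCW HS rats, against 31.0 FPKM in circulating cells.

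Of 16 NF-kB subunits and kinases, 8 were called lower in kidney cells of every group of rats and none higher. Of 15 other NF-kB inhibitors and regulators, 4 were lower in all 5, among them the deubiquitinase gene Cyld, with 6.95 FPKM in kidney cells of SS/MCW HS rats, against 25.7 FPKM in circulating cells. Of 16 NF-kB target cytokines, chemokines and adhesion genes, 5 were called higher in every group of rats and none lower. Ccl3, a chemokine gene that macrophages and activated T cells express, had 242 FPKM in kidney cells of SS/MCW HS rats, against 24.4 FPKM in circulating cells.

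Of 15 other MAP kinase phosphatases and ERK inhibitors, 4 were called higher in kidney cells of every group of rats and 1 lower. These are 26.7% and 6.67% of the list, not far from the 18.4% and 13.6% over all gene models. Dusp6, a cytoplasmic phosphatase of ERK, had 26.0 FPKM in kidney cells of SS/MCW HS rats, against 8.12 FPKM in circulating cells, and Dusp10, a phosphatase of p38 and JNK, had 2.72 FPKM, against 8.65 FPKM. Of 21 immediate early genes, 12 were higher in all 5 and 2 were lower, and their median log2 fold change lay between 2.60 and 3.58, against 0.20 to 0.44 over all gene models tested. Of 11 macrophage markers, 9 were called higher in every group of rats. How far the macrophage or tubule RNA of the kidney libraries enters the kidney levels of Dusp1 and Socs3 was not tested.

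Kidney cells of SS/MCW rats on HS and on LS were compared to find whether the salt challenge moved the feedback genes. Tnfaip3 rose, with 34.7 FPKM on HS, against 10.00 FPKM on LS, a log2 fold change of 1.79 with a 95% interval from 0.93 to 2.66 and a Cuffdiff q of 0.0179 in the authors' deposited table. It was the 1 call among the 7 genes, while 0.433% of all gene models were called, 0.258% higher and 0.175% lower. All 7 genes had a log2 fold change above 0, with a median of 0.88, against -0.06 over all gene models tested. With the normal p of the test statistic none of the calls of these genes within kidney or within circulating cells passed. The share of all gene models that passed by that p is not given here, so this is no result about these genes alone.

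The other 6 genes did not pass. Dusp2 had 51.7 FPKM on HS, against 19.4 FPKM on LS, with a log2 fold change of 1.42, an unadjusted Cuffdiff p of 0.00135 and a q of 0.173. Nfkbia had 149 FPKM on HS, against 80.6 FPKM on LS, with a log2 fold change of 0.88 and a q of 0.604. The remaining 4 genes had larger p-values. Dusp1 had 292 FPKM on HS, against 186 FPKM on LS, and Socs3 had 119 FPKM on HS, against 93.1 FPKM on LS. Cish had 33.3 FPKM on HS, against 24.5 FPKM on LS, and Socs1 had 7.86 FPKM on HS, against 3.82 FPKM on LS, with a log2 fold change of 1.04. Their q-values were all 1.000, and the interval of Socs1, from -1.03 to 3.12, was the widest of the 7.

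The pathway lists had few calls in the same comparison. Of 18 cytokine receptor chains Il2rg rose, with 83.2 FPKM on HS, against 25.3 FPKM on LS. Of 11 JAK and STAT genes, 14 NF-kB inhibitors and regulators, 15 NF-kB subunits and kinases and 18 immediate early genes tested, none was called. Their median log2 fold changes were 0.32, 0.35, 0.27 and 0.68. Of 15 NF-kB target genes 1 fell and none rose. It was Ptgs2, which encodes the inducible cyclooxygenase and was named after its values were seen, with 0.306 FPKM on HS, against 4.16 FPKM on LS. The list leaned the other way, with 13 of 15 log2 fold changes above 0. Its median was 0.57, against -0.06 over all gene models tested. Markers of the leukocytes had higher values on HS as well. The summed level of 17 T cell markers was 1060 FPKM on HS, against 617 FPKM on LS, and 16 of 16 tested had a fold above 0, with Cd27 and Cd4 called. Macrophage markers summed to 1520 FPKM on HS, against 779 FPKM on LS, natural killer markers to 600.4 FPKM, against 341 FPKM, and proximal tubule markers to 3420 FPKM, against 5793 FPKM. Median log2 fold changes were 1.24 for T cell, 0.65 for macrophage, 1.12 for natural killer and -0.61 for proximal tubule markers. Their part in the rise of Tnfaip3 was not tested.

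In kidney cells of SS/CRL rats the same salt challenge gave another pattern. Socs3 rose, with 133 FPKM on HS, against 81.8 FPKM on LS, a log2 fold change of 0.70 with a 95% interval from 0.30 to 1.10 and a Cuffdiff q of 0.0137 in the authors' deposited table. It was again the 1 call among the 7 genes, while 5.51% of all gene models were called, 2.44% higher and 3.07% lower. Tnfaip3 had 7.39 FPKM on HS, against 10.5 FPKM on LS, with a q of 0.441, and Dusp2 had 12.3 FPKM on HS, against 18.1 FPKM on LS, with a q of 0.395. Neither passed, and both lay on the other side of 0 than in SS/MCW rats.

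Nfkbia had 81.3 FPKM on HS, against 73.7 FPKM on LS in SS/CRL kidney cells, and Dusp1 had 214 FPKM on HS, against 189 FPKM on LS. Cish had 26.6 FPKM on HS, against 36.7 FPKM on LS, and Socs1 had 2.36 FPKM on HS, against 1.01 FPKM on LS. The Cuffdiff q-values of these 4 genes lay between 0.499 and 0.773. Of 17 immediate early genes tested 3 rose on HS, Gadd45b, Junb and Egr1, and none fell. Junb, an AP-1 subunit gene, had 205 FPKM on HS, against 123 FPKM on LS. The T cell markers summed to 284 FPKM on HS, against 376 FPKM on LS, with 1 of 15 called lower, and the proximal tubule markers to 7379 FPKM, against 12746 FPKM, with 11 of 15 called lower and 1 higher. Endothelial markers summed to 255 FPKM on HS, against 149.8 FPKM on LS, with 5 of 10 called higher, and thick limb and distal nephron markers to 2607 FPKM, against 1795 FPKM, with 2 of 14 called higher. The part of these markers in the rise of Socs3 was not tested.

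**Figure D3:**
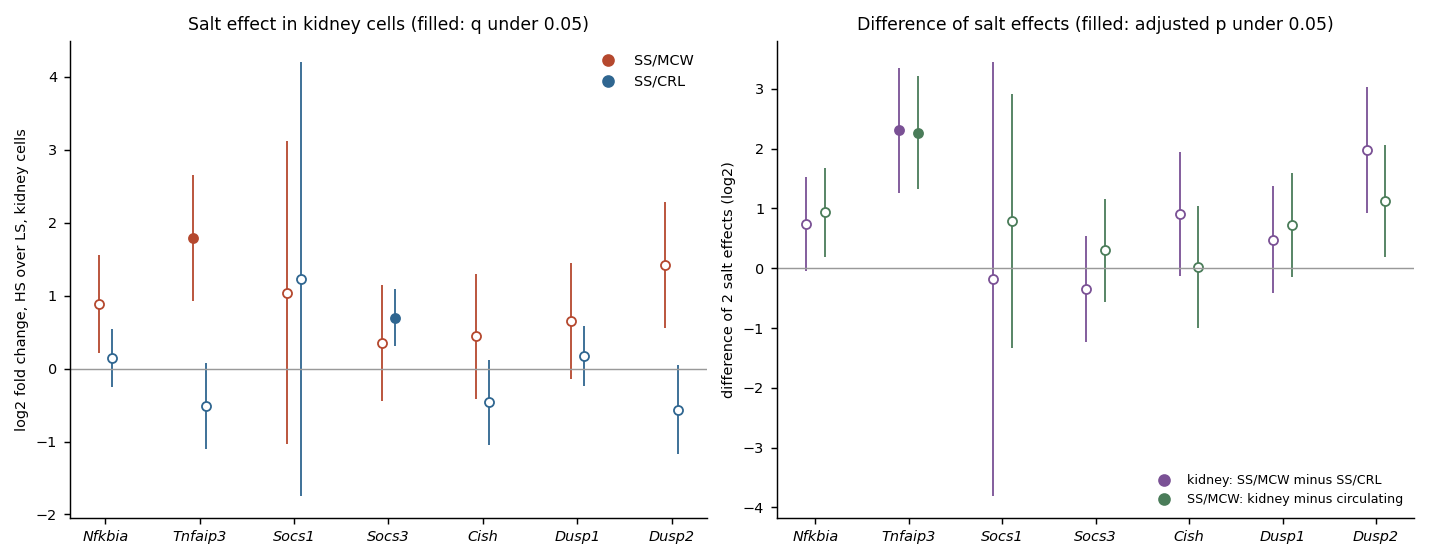
Left, log2 fold change of HS over LS in kidney cells (vertical axis) for each gene in SS/MCW and SS/CRL rats, filled where the Cuffdiff q was under 0.05. Right, difference of 2 salt effects on the log2 scale, filled where the adjusted p was under 0.05. Bars are 95% intervals derived from the deposited p-value, and Tnfaip3 is filled in both differences.

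Whether the salt effect differed between the rat types was tested by subtracting one log2 fold change from the other, with standard errors derived from the deposited p-values. The salt effect on Tnfaip3 in kidney cells was 1.79 in SS/MCW rats and -0.51 in SS/CRL rats, a difference of 2.31 with a standard error of 0.53 and a 95% interval from 1.26 to 3.35. The two-sided normal z test gave an adjusted p of 0.0124 with Benjamini-Hochberg adjustment over 16429 gene models. Of these 0.365% passed. Dusp2 had a difference of 1.98 with an interval from 0.92 to 3.03 and an adjusted p of 0.0571 by the same test. For Nfkbia, Cish and Dusp1 the differences were 0.74, 0.91 and 0.47, and for Socs1 and Socs3 -0.18 and -0.35, with adjusted p-values from 0.774 to 0.999. With standard errors taken from the Cuffdiff test statistic instead, no gene model passed, and that of Tnfaip3 had an unadjusted p of 0.0224.

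Salt effects in kidney and circulating cells of the same rat type were set against each other in the same way. The z test took the 2 effects as independent, although both kinds of cells came from the same groups of rats. With 1 value per group this pairing could not be allowed for. In SS/MCW rats the effect on Tnfaip3 was 1.79 in kidney cells and -0.47 in circulating cells, a difference of 2.27 with an interval from 1.32 to 3.21 and an adjusted p of 0.0103 by the normal z test. It was 1 of 4 gene models of 12479 that passed, or 0.0321%. Nfkbia and Dusp2 had differences of 0.93 and 1.13 with adjusted p-values of 0.888 and 0.967. In SS/CRL rats none of the 7 genes passed, where 1.41% of 11761 gene models did. The nearest were Socs3, with a difference of 0.80 and an adjusted p of 0.0609, and Cish, with -1.18 and 0.0609, whose salt effect was -0.46 in kidney cells and 0.72 in circulating cells.

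The rat types were compared within kidney cells on each chow. On HS, SS/CRL rats had lower levels of Tnfaip3, Dusp2 and Nfkbia than SS/MCW rats, while the STAT-induced inhibitors and Dusp1 did not pass. Tnfaip3 had 7.64 FPKM in SS/CRL rats, against 35.8 FPKM in SS/MCW rats, and Dusp2 had 12.6 FPKM, against 53.4 FPKM, both with a Cuffdiff q of 0.00149 in the authors' deposited table, the smallest the table holds. Their log2 fold changes were -2.23 and -2.08. Nfkbia had 83.4 FPKM in SS/CRL rats, against 153 FPKM in SS/MCW rats, with a log2 fold change of -0.87 and a q of 0.00538. Of all gene models 5.72% were called here, 2.75% higher and 2.97% lower in SS/CRL rats.

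Socs1 had 2.43 FPKM in SS/CRL rats, against 8.15 FPKM in SS/MCW rats, with a q of 0.310. Dusp1 had 219 FPKM in SS/CRL rats, against 299.8 FPKM in SS/MCW rats, Socs3 had 136 FPKM, against 121 FPKM, and Cish had 27.3 FPKM, against 34.3 FPKM, with q-values of 0.444, 0.799 and 0.634. On HS the other NF-kB inhibitors and regulators fell in 4 of 14 genes tested and rose in none in SS/CRL relative to SS/MCW rats. Bcl3, an atypical IkB protein gene, had 4.18 FPKM in SS/CRL rats, against 14.3 FPKM in SS/MCW rats, and Nfkbiz, another of that class, had 22.7 FPKM, against 42.6 FPKM. NF-kB target genes fell in 6 of 14, as Ccl3 did with 59.8 FPKM in SS/CRL rats, against 278 FPKM in SS/MCW rats.

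Cytokine receptor chains fell in 5 of 18 genes and JAK and STAT genes in 3 of 11, and in each list none rose. Il2rb, a signalling chain of the interleukin-2 receptor, had 6.62 FPKM in SS/CRL rats, against 50.4 FPKM in SS/MCW rats. Jak3, a kinase of the same receptor, had 21.3 FPKM, against 52.8 FPKM. Of 14 other MAP kinase phosphatases and ERK inhibitors, Dusp5 and Spry2 fell and Dusp22 rose. The lists' median log2 fold changes were -0.32 for NF-kB inhibitors and regulators, -1.18 for NF-kB targets and -0.70 for receptor chains. The medians were -0.55 for JAK and STAT genes and -0.12 for phosphatases, against 0.12 over all gene models tested.

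Leukocyte markers differed in the same direction on HS. The 17 T cell markers summed to 292 FPKM in SS/CRL rats, against 1095 FPKM in SS/MCW rats, and 14 were called lower, with a median log2 fold change of -2.05. The macrophage markers summed to 399 FPKM, against 1570.4 FPKM, with 8 of 10 called lower, and the natural killer markers to 133 FPKM, against 621 FPKM, with 7 of 7 called lower. Proximal tubule markers summed to 7575 FPKM, against 3498 FPKM, with 6 of 15 called higher. The log2 fold changes of Tnfaip3 and Dusp2 lay close to the T cell, macrophage and natural killer medians of -2.05, -2.09 and -2.37, and that of Nfkbia was nearer 0. Their part in the lower levels was not tested.

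**Figure D4:**
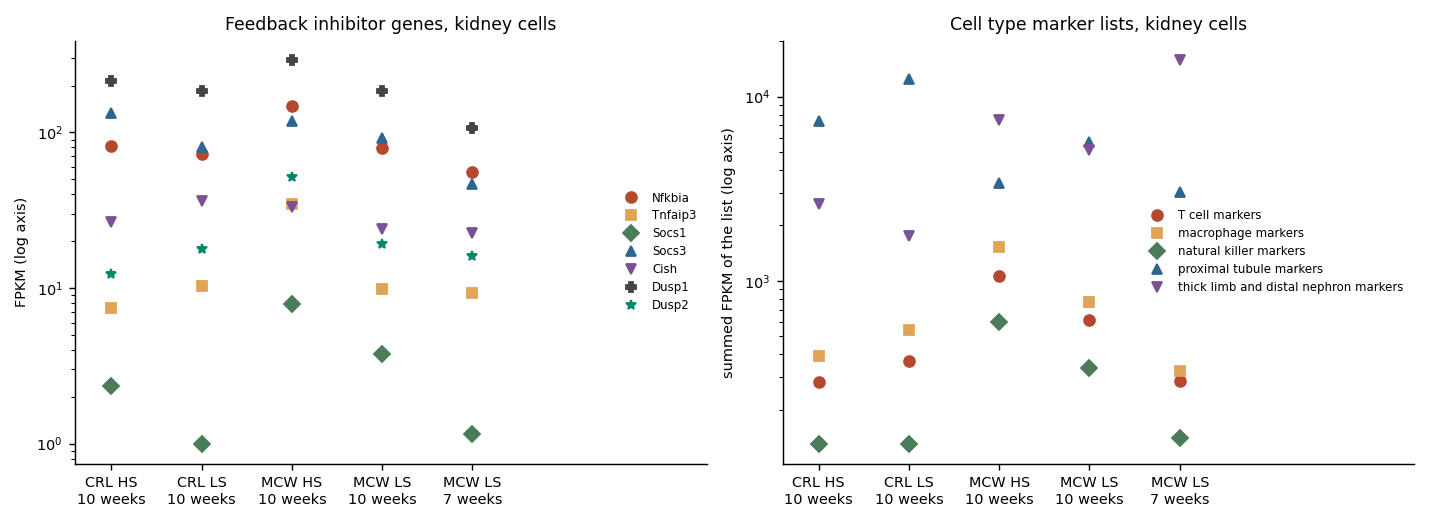
Levels of the 7 genes (left, FPKM, log axis) and summed FPKM of 5 lists of cell type markers (right, log axis) in the 5 kidney groups, 1 point per group. The kidney cells of SS/MCW HS rats held the highest T cell sum of 1060 FPKM and the highest macrophage sum of 1520 FPKM, and also the highest levels of Nfkbia, Tnfaip3, Socs1, Dusp1 and Dusp2.

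On LS none of the 7 genes was called between the rat types in kidney cells, where 1.81% of all gene models were, 1.36% higher and 0.444% lower, and none had an unadjusted p under 0.05. Tnfaip3 had 10.3 FPKM in SS/CRL rats, against 9.78 FPKM in SS/MCW rats, with a log2 fold change of 0.08 and an interval from -0.60 to 0.75. Dusp2 had 17.7 FPKM, against 19.0 FPKM, Nfkbia had 72.2 FPKM, against 78.4 FPKM, and Dusp1 had 185 FPKM, against 182 FPKM. For these 4 genes the values of the rat types lay close together. Socs3 had 80.2 FPKM, against 89.8 FPKM, Cish had 36.0 FPKM, against 23.8 FPKM, and Socs1 had 0.988 FPKM, against 3.70 FPKM with an interval from -5.71 to 1.90. The T cell markers summed to 369 FPKM in SS/CRL rats, against 608 FPKM in SS/MCW rats, with 1 of 16 called lower.

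Kidney cells of SS/MCW LS rats were also compared between 10 and 7 weeks of age, and none of the 7 genes was called, where 1.07% of gene models were, 0.774% higher and 0.297% lower. All 7 log2 fold changes were above 0, with a median of 0.45, against 0.09 over all gene models tested, but those of Tnfaip3 and Cish, 0.02 and 0.03, turned to -0.02 and -0.02 when recentred on well expressed gene models. Socs3 had 92.9 FPKM at 10 weeks, against 49.3 FPKM at 7 weeks, with an unadjusted Cuffdiff p of 0.00415 and a q of 0.176. Dusp1 had 186 FPKM at 10 weeks, against 113 FPKM at 7 weeks, with a p of 0.0341 and a q of 0.568. Tnfaip3 stood at 9.98 FPKM at 10 weeks, against 9.83 FPKM at 7 weeks. Of 18 immediate early genes 2 rose, and macrophage markers rose in 3 of 10. Thick limb and distal nephron markers summed to 5232 FPKM at 10 weeks, against 16754 FPKM at 7 weeks, with 1 of 14 called lower. T cell markers summed to 617 FPKM at 10 weeks, against 302 FPKM, with 1 of 16 called higher. Natural killer markers summed to 341 FPKM, against 148 FPKM, with 1 of 7 called higher. Proximal tubule markers summed to 5782 FPKM, against 3219 FPKM, with 1 of 15 called higher. The part of these markers in the values of Socs3 and Dusp1 was not tested.

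Within circulating cells, where proximal tubule markers summed to at most 0.985 FPKM, all of the 7 genes but Cish spanned narrower ranges than in kidney cells. High salt was first compared with low salt. In SS/CRL rats Nfkbia fell, with 87.9 FPKM on HS, against 131 FPKM on LS, and so did Tnfaip3, with 43.5 FPKM on HS, against 64.6 FPKM on LS. Their log2 fold changes were -0.58 with an interval from -0.86 to -0.30 and -0.57 with an interval from -0.85 to -0.29, each with a Cuffdiff q of 0.0106, the smallest in the authors' deposited table. Of all gene models 0.67% were called, 0.216% higher and 0.454% lower.

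Cish had 16.1 FPKM on HS, against 9.84 FPKM on LS in circulating cells of SS/CRL rats, with a log2 fold change of 0.72 and a q of 0.0532. Socs1 had 9.58 FPKM on HS, against 7.66 FPKM on LS, Socs3 had 20.7 FPKM, against 22.1 FPKM, Dusp1 had 21.0 FPKM, against 24.9 FPKM, and Dusp2 had 25.4 FPKM, against 26.6 FPKM, with q-values from 0.602 to 0.968. No other NF-kB inhibitor or regulator of 14 tested was called. None of 17 T cell markers was called, and their median fold was 0.12 on the log2 scale, and 2 neutrophil and monocyte markers fell, S100a8 and S100a9. S100a9 had 3.54 FPKM on HS, against 13.8 FPKM on LS, and its part in the fall of Nfkbia and Tnfaip3 was not tested.

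In circulating cells of SS/MCW rats none of the 7 genes was called between HS and LS, where 0.107% of gene models were, 0.0355% higher and 0.0711% lower. Tnfaip3 had 55.6 FPKM on HS, against 77.2 FPKM on LS, with a log2 fold change of -0.47, an unadjusted Cuffdiff p of 0.0126 and a q of 0.623. Nfkbia had 118 FPKM on HS, against 122 FPKM on LS, and Cish had 15.7 FPKM, against 11.7 FPKM. Socs1, Socs3, Dusp1 and Dusp2 had log2 fold changes of 0.25, 0.05, -0.07 and 0.29. The difference of the salt effects between the rat types did not pass for any of the 7 genes in circulating cells, where 1 gene model of 16360 passed, or 0.00611%. For Nfkbia it was 0.53 with an interval from 0.10 to 0.96 and an unadjusted p of 0.0169 by the normal z test, and for Tnfaip3 it was 0.10 with an interval from -0.36 to 0.56.

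Between the rat types, 1 of the 7 genes was called lower in circulating cells of SS/CRL rats on each chow. On HS Dusp2 was called lower, with 24.7 FPKM in SS/CRL rats, against 38.8 FPKM in SS/MCW rats, a log2 fold change of -0.65 and a Cuffdiff q of 0.0224 in the authors' deposited table. Of all gene models 0.241% were called, 0.2% higher and 0.0412% lower. Socs1 had 9.29 FPKM in SS/CRL rats, against 15.9 FPKM in SS/MCW rats, with a q of 0.287, and Nfkbia had 85.3 FPKM, against 118 FPKM, with a q of 0.553. All 7 log2 fold changes lay below 0, with a median of -0.41, against -0.02 over all gene models tested, but that of Cish, -0.01, became 0.02 when recentred. Of the 7 genes 5 had an unadjusted p under 0.05, where 2.17% of all gene models did.

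On LS Socs1 was called lower, with 7.64 FPKM in SS/CRL rats, against 13.7 FPKM in SS/MCW rats, a log2 fold change of -0.84 and a q of 0.0239. Of all gene models 0.541% were called, 0.412% higher and 0.129% lower. Tnfaip3 had 64.4 FPKM in SS/CRL rats, against 79.3 FPKM in SS/MCW rats, and Dusp2 had 26.6 FPKM, against 32.5 FPKM, neither of which passed. Nfkbia had 131 FPKM in SS/CRL rats, against 125 FPKM in SS/MCW rats. Natural killer and B cell markers were higher in SS/CRL circulating cells, with 3 of 8 and 4 of 6 called on LS and 2 of 8 and 0 of 6 on HS, and T cell markers had medians of -0.03 and -0.07. The part of these markers in the levels of Socs1 and Dusp2 was not tested.

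With age, none of the 7 genes was called in circulating cells of SS/MCW LS rats, where 1.94% of gene models were, 1.02% higher and 0.918% lower. Tnfaip3 had 77.0 FPKM at 10 weeks, against 54.3 FPKM at 7 weeks, with a log2 fold change of 0.51 and a Cuffdiff q of 0.107. The other 6 genes had log2 fold changes from -0.18 for Cish to 0.24 for Socs3. Over all 5 circulating comparisons the log2 fold changes of Dusp1 had the narrowest range of the 7 genes, -0.24 to 0.10, and those of Socs1 the widest, -0.84 to 0.32.

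**Figure D5:**
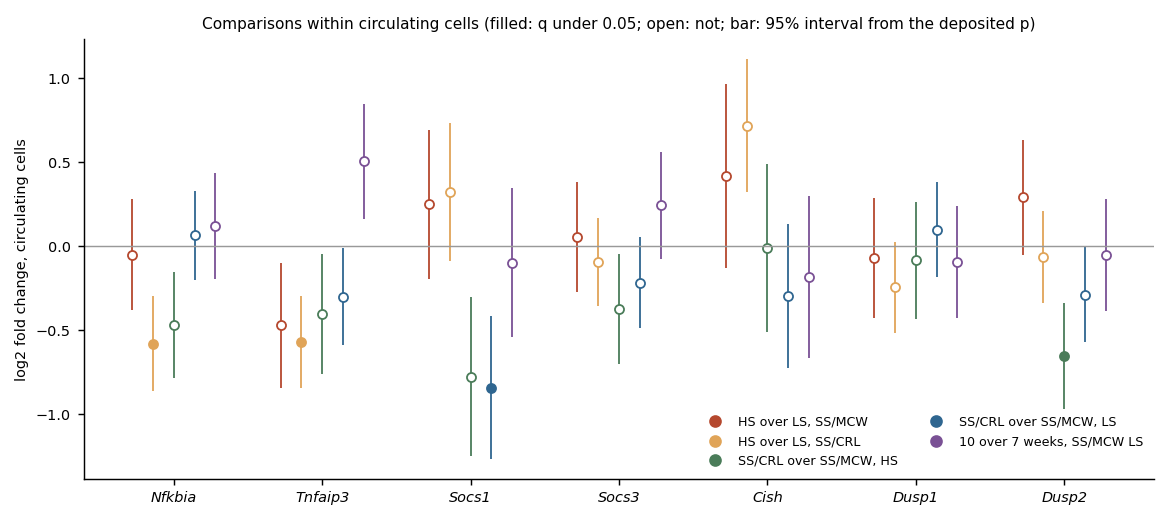
Log2 fold change (vertical axis) of each gene in the 5 comparisons within circulating cells, with 95% intervals derived from the deposited p-value as bars. Filled points passed a Cuffdiff q of 0.05, which held for Nfkbia and Tnfaip3 with salt in SS/CRL rats, Dusp2 between the rat types on HS and Socs1 between the rat types on LS.

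Levels were set in order over the 10 groups as the median of the tables that hold a group, which were normalized separately and differed by up to 1.16-fold for the same group and gene. In kidney cells Dusp1 had the highest level of the 7 genes in every group, from 107 FPKM in SS/MCW LS rats at 7 weeks to 292 FPKM in SS/MCW HS rats, and Socs1 the lowest, from 0.988 to 7.86 FPKM. In circulating cells Nfkbia had the highest level in every group, from 87.9 to 131 FPKM. Of the 7 genes the kidney range was widest for Socs1, at 7.96-fold from the lowest to the highest group, and for Tnfaip3, at 4.69-fold, and narrowest for Cish, at 1.59-fold.

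The order of the kidney groups differed between the genes. For Tnfaip3 it was SS/MCW HS with 34.7 FPKM, then SS/CRL LS with 10.3, SS/MCW LS at 10 weeks with 9.88, SS/MCW LS at 7 weeks with 9.31 and SS/CRL HS with 7.39 FPKM. In the tables that compare them directly, SS/MCW HS differed from SS/MCW LS and from SS/CRL HS, and none of the other 3 direct comparisons passed. For Socs3 the order was SS/CRL HS with 133 FPKM, SS/MCW HS with 119, SS/MCW LS at 10 weeks with 91.4, SS/CRL LS with 80.2 and SS/MCW LS at 7 weeks with 46.7 FPKM. Of its direct comparisons SS/CRL HS with SS/CRL LS passed.

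Across the 10 groups the profile most like that of Nfkbia among the 7 genes was that of Dusp2, with a root mean square difference of 0.32 on the log2(FPKM + 1) scale after each gene's mean over the groups was subtracted. Tnfaip3 was nearest to Socs1, at 0.51, and Socs3 to Dusp1, at 0.57. Among 10204 other gene models the profiles most like Tnfaip3 were those of Tnfrsf1b, a receptor of tumour necrosis factor, Gpr65 and Slfn13, at 0.20, 0.24 and 0.25. Those most like Nfkbia were Gm2a, Pde7a and Rasgrp4, at 0.18, 0.19 and 0.19, and those most like Dusp2 were Sh2d2a, Samsn1 and the interferon gamma receptor gene Ifngr1, at 0.19, 0.22 and 0.22. Tgfb1, Trpv2 and Tmsb4x were nearest to Socs1, at 0.32, 0.33 and 0.33. For Socs3 they were Sh3rf2, Them6 and Ankrd29, at 0.17, 0.18 and 0.20, for Cish Klhdc4, Nfkb2 and Rdm1, each at 0.16, and for Dusp1 Apol9a, Rasd1 and Evpl, at 0.18, 0.21 and 0.22. These distances describe 10 group values that share libraries and scaling.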

How the data were processed

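RNA of kidney and circulating T cells was, per the labels, extracted with TRIzol and made into TruSeq libraries. Per the submitters' processing notes, the tools were cutadapt, Trim Galore 0.2.5, TopHat, TopHat2 2.1.1, Cufflinks 2.2.1 and Cuffdiff, on build rn5, and their order and settings are not given in the sources used here. Expression in the deposited tables is FPKM, 1 value per group of 4 pools, as Cuffdiff wrote it per the file headers. Each deposited table also gives a Cuffdiff test statistic, a score. Per the file headers it stands beside a p-value and a q-value. No deposited p was under 5e-05. Library depth, and so the precision of a value, is unknown.

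Fold changes run kidney over circulating, HS over LS, 10 over 7 weeks and SS/CRL over SS/MCW, as the log2 ratio of FPKM with no pseudocount. A call needed a deposited q under 0.05 and a status of OK. The standard error of a fold change was its size over the normal quantile of its deposited p. Where p was 5e-05 it is an upper bound for an error of this kind, and not for one from the test statistic. For Tnfaip3 with salt in SS/MCW kidney cells the error was 0.44 from the deposited p and 0.77 from the test statistic. Differences of salt effects were tested with a two-sided z test and Benjamini-Hochberg adjustment, run also on simulated data. The simulated fold changes were drawn from the standard errors that the test assumes, with no lower limit on p. They could therefore not check those errors or the limit of 5e-05. All 7 genes are named in every comparison. Of each other list up to 4 called genes of largest fold with at least 1 FPKM in both groups could be named. Profiles were compared over gene models with 1 symbol and at least 5 FPKM in 1 group. The genes and the 18 lists, of whose 238 genes 226 matched a gene model, were chosen with earlier results of these data known. Alternatives tried were a stricter q of 0.01, at least 1 FPKM in 1 group, normal p-values from the Cuffdiff test statistic, alone or after recentring on gene models with at least 5 FPKM in both groups, a pseudocount of 1 and, for differences, standard errors from the test statistic and a minimum of 5 FPKM. Computation used scipy 1.17.1, numpy 2.4.6 and pandas 2.3.3 in Python 3.11.15, and figures were drawn with matplotlib 3.10.9.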

Additional observations from a re-analysis of the deposited data

Results flagged for a closer look

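The salt effect on Tnfaip3 differed between the rat types in kidney cells, by 2.31 on the log2 scale (SS/MCW minus SS/CRL), and between the tissues in SS/MCW rats, by 2.27 (kidney minus circulating). Each difference was itself tested, with adjusted p-values of 0.0124 and 0.0103 by a normal z test with Benjamini-Hochberg adjustment. With standard errors from the Cuffdiff test statistic neither passed, with unadjusted p-values of 0.0224 and 0.0085. Both differences use the same SS/MCW kidney comparison, so the second is not independent of the first. The test of the second also took kidney and circulating cells as independent, although they came from the same groups of rats. That comparison has 1 value for each group of 4 pools, and the pools behind the value could not be examined.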

How the results depend on the processing

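No paired analysis was possible because the deposited tables hold 1 value per group, and for the same reason no pool could be left out. A minimum of 1 FPKM left all 15 counts of called genes within 1.5 times the reported ones, and a pseudocount of 1 left all 105 log2 fold changes in direction and within 1 standard error. The largest shifts were in Socs1 between the tissues, whose log2 fold change became -2.31 in place of -3.22 in SS/CRL LS rats. In SS/MCW LS rats at 7 weeks it became -3.01 in place of -3.87. Within kidney cells that of Socs1 became 0.74 in place of 1.23 for salt in SS/CRL rats. Between the rat types in kidney cells on LS it became -1.24 in place of -1.90. Recentring moved 1 of 105 by more than 1 standard error, Nfkbia in SS/CRL HS rats between the tissues, which became -0.20. It turned the sign of 4 log2 fold changes near 0, none of them called: Tnfaip3 and Cish with age in kidney cells, Socs3 with salt in SS/MCW circulating cells, which became -0.01, and Cish between the rat types in circulating cells on HS. The median used lay between -0.23 and -0.15 in the comparisons between the tissues, so relative to it the kidney excess of Dusp1 and Socs3 is slightly larger and the kidney deficits slightly smaller. With a normal p of the Cuffdiff test statistic, with or without recentring, 2 genes in place of 4 were called between the tissues in SS/MCW HS rats. In SS/MCW LS rats at 10 weeks 2 were called, or 3 with recentring, in place of 6. Under both settings 0 genes were called for salt in SS/MCW and in SS/CRL kidney cells, between the rat types on HS in kidney cells, for salt in SS/CRL circulating cells and between the rat types in circulating cells on HS and on LS. The share of all gene models called under these settings is not given here. Whether these counts are particular to the 7 genes cannot be told. At a q under 0.01 the count was 0 for salt in SS/MCW and SS/CRL kidney cells, for salt in SS/CRL circulating cells and between the rat types in circulating cells on both chows. Of these only the SS/CRL kidney table holds a q under 0.01 for any gene model. For the differences of salt effects, standard errors from the test statistic gave 0 in place of 1 for the rat types in kidney cells and 0 in place of 1 for the tissues in SS/MCW rats. A minimum of 5 FPKM gave 2 for the rat types in kidney cells, Tnfaip3 and Dusp2, where 0.547% of 10969 gene models passed. For the tissues in SS/CRL rats it gave 2 in place of 0, Socs3 and Cish, where 2.25% of 7245 gene models passed. Socs3 and Cish each had an adjusted p of 0.0479 by the normal z test. The z values of the kidney difference had an SD of 1.08 with errors from the deposited p and 0.61 with errors from the test statistic. Why the 2 kinds of error differ was not tested. No called log2 fold change turned its sign under the pseudocount or recentring. Depth per library is unknown, and low values such as those of Socs1 in kidney cells carry wide intervals.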
